A study of Mus musculus with 4 samples.

Results

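The transcripts described here encode proteins that write, erase or read N6-methyladenosine (m6A), a methyl mark on adenosines inside mRNA. Their members are the rows of the deposited region table whose gene symbol is Fto, Alkbh5, Wtap, Zc3h13 or Ythdf1. They came to 13 regions of 5 genes, none overlapping another gene of the RefSeq table, out of 6697 distinct regions under 3882 gene symbols. The series set an m6A immunoprecipitate of mouse embryonic stem cells lacking the Gsk-3 kinases (Gsk-3 DKO, double knockout) against that of wild-type cells, each with a total mRNA input, so 4 groups of 1 library. Cells of both genotypes were feeder-free E14K cells, grown for 14 days without LIF, a cytokine that keeps such cells from differentiating. Poly(A) RNA was bound to an m6A antibody on beads, and the RNA was chemically fragmented for Ion Torrent libraries. Whether the double-knockout cells came from 1 clone is not given in the sources used here.

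m6A is placed on nascent mRNA by a complex whose catalytic core is METTL3 with METTL14. WTAP holds that core at nuclear speckles, ZC3H13 anchors the complex in the nucleus, and RBM15 and RBM15B guide it to RNA. FTO and ALKBH5 are demethylases, and YTH proteins such as YTHDF1 bind the methylated base in the cytoplasm. In mouse embryonic stem cells the mark is known for hastening the decay of mRNAs that keep the cells undifferentiated.

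Each region has a count from the Gsk-3 DKO and a count from wild type. The headers name the genotype only, and the counts are taken here as those of the m6A libraries. Coordinates are as deposited and match the mouse build GRCm38, with the genes under the NCBI identifiers 26383 (Fto), 268420 (Alkbh5), 60532 (Wtap), 67302 (Zc3h13) and 228994 (Ythdf1). The table holds 0 input columns, so less methylation of a transcript and less of the transcript cannot be told apart, and neither can fewer cells of a type and less RNA per cell. Summed over all listed regions there were 27072 Gsk-3 DKO reads and 573971 wild-type reads, or 4.72 Gsk-3 DKO reads per 100 wild-type reads. Listed regions in which the wild-type count was at or below that of the Gsk-3 DKO numbered 0, so the table holds 1 direction and a lower count in a member is no finding. What the members can show is how far each one's ratio lies from those of other listed regions. The authors' ratio of wild type over Gsk-3 DKO, where given, was at least 2.91, and wild-type counts were at least 15. Less reduced or shallower regions are thus missing from such comparisons, and the counting intervals do not allow for that selection. Of the marker genes, 4 of 10 for embryonic stem cells were listed (Pou5f1, Esrrb, and upstream regions of Lin28a and Utf1), with 1 of 6 for fibroblasts or feeders (Col1a1), 3 of 6 for endoderm, 2 of 4 for neural cells and 4 of 5 for mesoderm. A gene missing from the listed regions may still be expressed, so these counts neither check the label nor give a cell type. Without input columns, a listed region is also not shown here to hold a methylated base.

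Over the 13 regions there were 45 Gsk-3 DKO reads against 836 wild-type reads, which is 5.38 Gsk-3 DKO reads per 100 wild-type reads (95% counting interval 3.90 to 7.27). Counts in single regions ran from 0 to 19 in the Gsk-3 DKO (median 1) and from 15 to 203 in wild type (median 60). The Gsk-3 DKO had no read in 6 of the 13, namely both regions of Wtap, 3 of the 4 of Fto and the 1 of Alkbh5, against 50.5% of all listed regions. Folds are given with the constant of 0.825 that the authors' own ratio carries. A Gsk-3 DKO count of 0 is set at a floor of 3 counts, and its fold is given as at least the value there. The floor is below 3.69, the upper 95% limit of a count of 0, so these folds are not 95% lower limits. Counts of 1 and 2 keep their own value, so folds do not rank regions with reads against regions without. In Zc3h13, 1 against 36 gives 29.7-fold, while 0 against 63 in Wtap gives at least 17.3-fold. A region without Gsk-3 DKO reads passes 10-fold only if its wild-type count is high enough. At least 10-fold lower in the Gsk-3 DKO were 6 of the 13, against 52.5% of all. Only 2 of those 6 are left when Zc3h13, which gives 5 of the 13 regions, is left out. Both shares are near the background. The median log2 of Gsk-3 DKO over wild type, with a pseudocount of 0.5, was -4.43 in the members and -4.93 over all regions, but -3.39 and -3.42 with a pseudocount of 2. With counts of 0 set at the floor, the median fold was 7.97 in the members and 10.4 over all regions. The direction of these values follows from the listing, which holds 1 direction only. When the median log2 ratio of regions with Gsk-3 DKO reads is set to 0, every log2 value moves up by 3.77. Then 3 of the 13 members lie above 0, and the median over all regions is -1.17. The share of all regions above 0 is not given here, so that count says nothing particular to the members. That setting centres those regions by construction, so it does not test the direction.

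**Figure D1:**
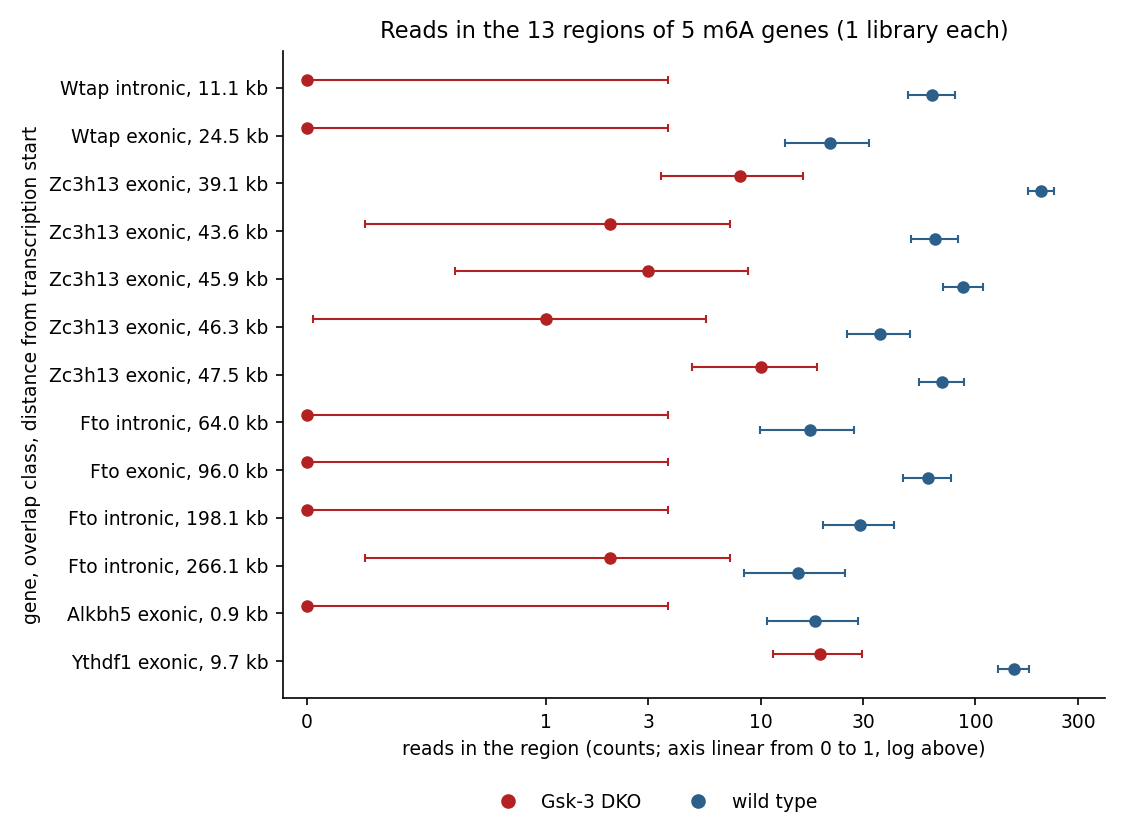
Reads in each of the 13 regions in the Gsk-3 DKO (red) and in wild type (blue), on an axis that is linear up to 1 and logarithmic above, with regions ordered by gene and by distance from the transcription start. Bars are exact 95% Poisson intervals. In each region the Gsk-3 DKO point lies left of the wild-type point, and 6 Gsk-3 DKO points are at 0.

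Among the writers, Wtap had no Gsk-3 DKO read. In an intron on chromosome 17 (12981079 to 12981297), 44.1% of the way along the gene, the Gsk-3 DKO had 0 reads against 63 in wild type (48.4 to 80.6), at least 17.3-fold lower. In a coding exon 96.1% along the gene (12967701 to 12967879) it had 0 against 21 in wild type, at least 5.77-fold lower. The intronic region thus held more wild-type reads than the coding one. Summed over both, 0 reads in the Gsk-3 DKO stood against 84 in wild type, which allows up to 3.57 Gsk-3 DKO reads per 100 at the floor and 4.49 by the exact 95% interval, while all intronic regions of the table together had 3.55. Of the 195 intronic regions with 50 to 99 wild-type reads, 65.1% also had no Gsk-3 DKO read, as did 54.9% of the 627 exonic regions with 20 to 29. A count of 0 was therefore the commoner outcome in regions of either kind.

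Zc3h13 was the member with the most regions. Its 5 regions lay in coding exons on chromosome 14, within 8570 bases of a gene of 60128, and all had Gsk-3 DKO reads. Having 5 or more regions was uncommon, with 142 of 3882 genes (3.66%) doing so. From the 5' end, the first region (75323354 to 75323641) had 8 Gsk-3 DKO reads against 203 wild-type reads, 20.9-fold lower (10.4 to 49.1). The next (75327880 to 75328066) had 2 against 65, 26.8-fold lower (7.13 to 226). The third (75330181 to 75330361) had 3 against 88, 24.2-fold lower (8.01 to 120).

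The fourth region of Zc3h13 (75330566 to 75330745) had 1 Gsk-3 DKO read against 36 wild-type reads, 29.7-fold lower (5.00 to 1205). The point values of these 4 regions lay between 2.78 and 3.94 Gsk-3 DKO reads per 100 wild-type reads. Their intervals were wide, from 1.68 to 7.91 in the first and from 0.0684 to 16.5 in the fourth. Each of them overlaps the interval of the fifth region. The fifth (75331746 to 75331923), 1000 bases further on, had 10 against 70, 5.77-fold lower (2.96 to 12.6), or 14.3 per 100 (6.56 to 27.9). It held the most Gsk-3 DKO reads of the 5 with only the third-highest wild-type count. Its ratio was 3.98 times that of the other 4 together, which had 14 against 392 (95% counting interval of the quotient 1.52 to 10.1). This region was picked from the 5 after its value was seen. Of the 1092 exonic regions with 50 to 99 wild-type reads, 50 (4.58%) had a ratio at or above it, while 52.7% and 55.4% were at or above the third and the second region.

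**Figure D2:**
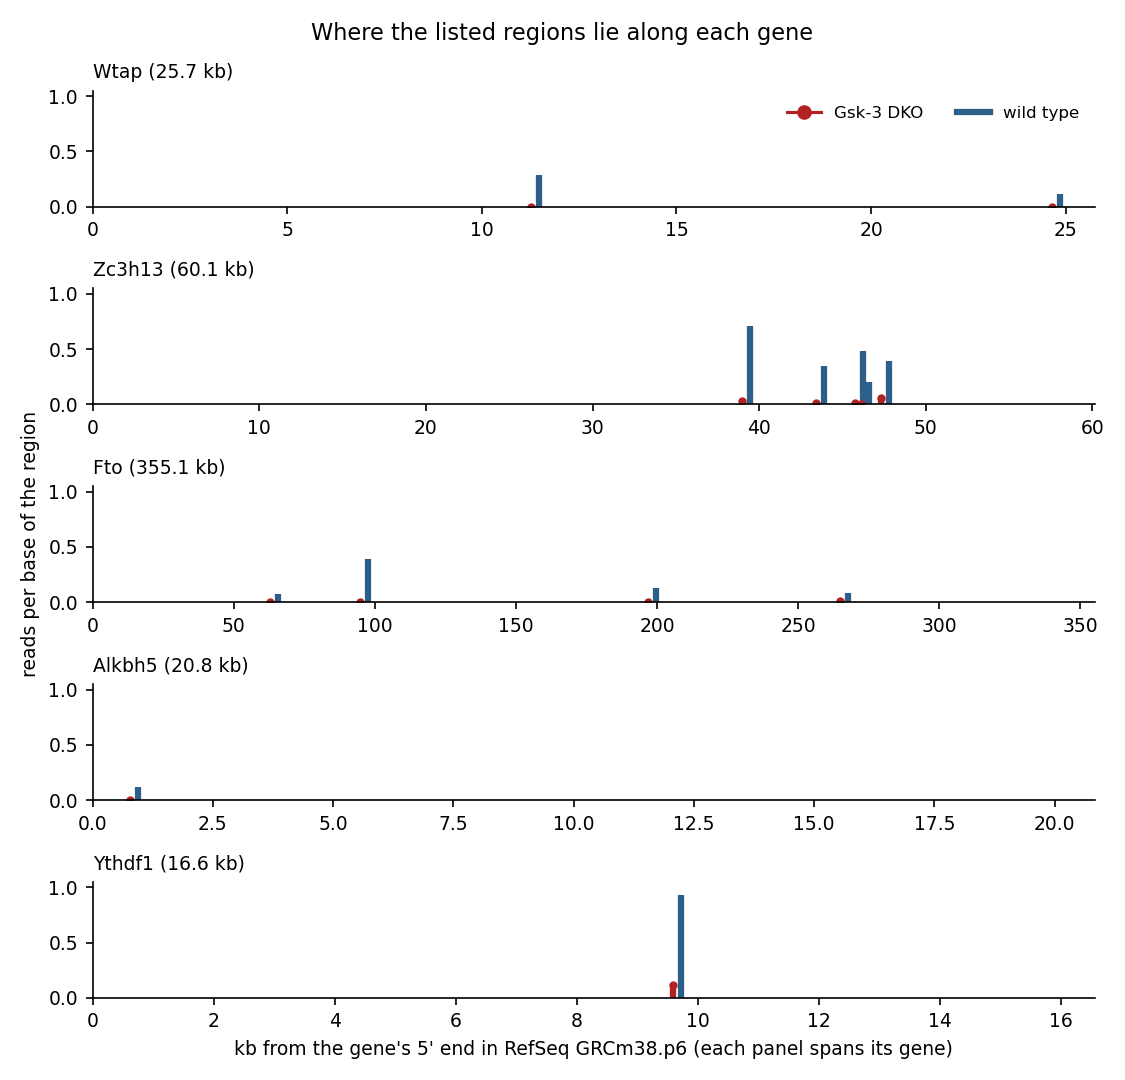
Reads per base of each region in the Gsk-3 DKO (red, drawn just left of the position) and in wild type (blue, just right of it), against kilobases from the 5' end of the RefSeq gene, with 1 panel per gene. The regions of Zc3h13 sit between 65.2% and 79.0% of its length, and those of Fto are spread from 18.1% to 75.0%.

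Among the erasers, Fto, whose protein is also linked to body weight in mice, had 4 regions on chromosome 8 over a gene of 355067 bases. In its coding exon (91409479 to 91409633), 96031 bases from the transcription start, the Gsk-3 DKO had 0 reads against 60 in wild type (45.8 to 77.2), at least 16.5-fold lower. That count of 0 allows up to 5.00 Gsk-3 DKO reads per 100 at the floor of 3 counts, and 6.34 by the exact 95% interval, while the 1092 exonic regions of like wild-type count had 5.06 per 100. A ratio below theirs was not detectable at this depth. No Gsk-3 DKO read was present in 27.7% of those regions.

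The other 3 regions of Fto lay in introns. The one nearest the start (91377374 to 91377595) had 0 Gsk-3 DKO reads against 17 in wild type, so that it was lower by at least 4.67-fold. The next (91511466 to 91511684) had 0 against 29, lower by at least 7.97-fold. The farthest (91579531 to 91579713) had 2 against 15, 6.19-fold lower (1.44 to 55.7). It was the only Fto region with Gsk-3 DKO reads although its wild-type count was the lowest in the gene and the lowest that the table lists. Among all intronic regions with 15 to 19 wild-type reads, 93.0% had no Gsk-3 DKO read and 3, this one included, had a ratio at or above 13.3 per 100. Over all 4 regions Fto had 2 Gsk-3 DKO reads against 121 wild-type reads, or 1.65 per 100 (0.198 to 6.10). This interval contains the 4.72 per 100 of the whole table.

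Alkbh5 had the least data. Its single region was in a coding exon on chromosome 11 (60538469 to 60538625), 864 bases from the transcription start. It had 0 Gsk-3 DKO reads against 18 in wild type (10.7 to 28.4), at least 4.95-fold lower. Of the 248 exonic regions with 15 to 19 wild-type reads, 68.1% also had 0, and a count of 0 here allows up to 16.7 Gsk-3 DKO reads per 100 at the floor and 22.7 by the exact interval. At this depth the interval of its quotient with each of the other members included 1.

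Ythdf1, a reader that has been linked to the translation of methylated mRNA, had the highest ratio of the 5 genes with regions summed, while 2 single regions, the fifth of Zc3h13 and the farthest of Fto, were higher. Its region in a coding exon on chromosome 2 (180911204 to 180911365), 9652 bases from the start and 58.3% along the gene, had 19 Gsk-3 DKO reads (11.4 to 29.7) against 151 wild-type reads (128 to 177). It was 6.55-fold lower in the Gsk-3 DKO (4.05 to 11.2), or 12.6 Gsk-3 DKO reads per 100 (7.37 to 20.3). At 0.117 Gsk-3 DKO and 0.932 wild-type reads per base it was also the densest member region, and 94.6% of all listed regions had a lower wild-type density. The 495 exonic regions with at least 100 and fewer than 200 wild-type reads had 6.36 per 100 together, below the interval of Ythdf1, and 63 of them (12.7%) had a ratio at or above it.

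**Figure D3:**
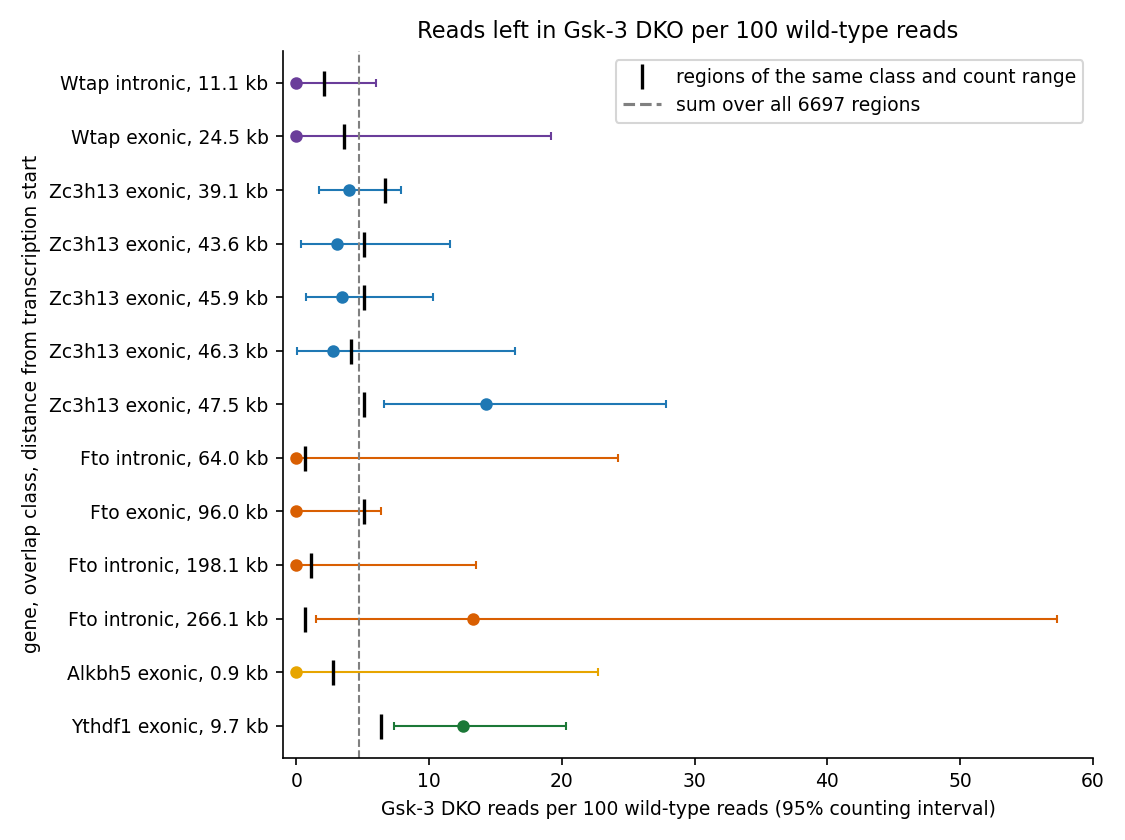
Gsk-3 DKO reads per 100 wild-type reads in each member region, with exact 95% counting intervals, beside the pooled ratio of regions of the same class and wild-type count range (black ticks) and of all regions (dashed line, 4.72). The intervals of Ythdf1, of the fifth region of Zc3h13 and of the farthest Fto intron region lie above their black ticks.

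Between the genes, with regions summed, the intervals of the ratio's quotient excluded 1 in 4 of 10 pairs, without adjustment for the number of pairs. The ratio of Ythdf1 was 2.42 times that of Zc3h13 (1.22 to 4.75) and 7.57 times that of Fto (1.77 to 68.3). Against Wtap, which had no Gsk-3 DKO read, the lower limits of the quotient were 2.51 for Ythdf1 and 1.07 for Zc3h13. A quotient of 1 is not what like regions give, since exonic regions with 15 to 19 wild-type reads had 2.78 Gsk-3 DKO reads per 100 and those with 50 to 99 had 5.06, against 0.626 and 2.10 in introns. From regions of the same class and count range, the quotient would be 1.12 for Ythdf1 over Zc3h13, 2.16 for Ythdf1 over Fto, 2.57 for Ythdf1 over Wtap and 2.30 for Zc3h13 over Wtap. The interval excluded that value in 1 of the 10 pairs, Ythdf1 over Zc3h13. Fto and Zc3h13 did not separate, with a quotient of 0.319 (0.0360 to 1.31). By role, the eraser regions had 2 Gsk-3 DKO reads against 139 wild-type reads (1.44 per 100, 0.173 to 5.30) and the writer regions 24 against 546 (4.40 per 100, 2.79 to 6.61). These intervals overlap. All of them cover counting error only, since 1 library per genotype gives no spread between replicates.

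The members were also set apart by where they lay in the gene. The 9 coding-exon regions of the members had 43 Gsk-3 DKO reads against 712 wild-type reads (6.04 per 100, 4.33 to 8.22), and the 4 intronic ones had 2 against 124 (1.61 per 100, 0.193 to 5.95), with overlapping intervals. No Gsk-3 DKO read was present in 3 of the 9 exonic members, against 36.1% of all exonic regions, and in 3 of the 4 intronic members, against 70.9% of all intronic regions. At least 10-fold lower were 5 of the 9 exonic members, against 56.6% of all exonic regions, and 1 of the 4 intronic members, against 46.8% of all intronic ones. The Fto introns without Gsk-3 DKO reads had 29 and 17 wild-type reads. At the floor their folds are 7.97 and 4.67, so they could not be called at least 10-fold lower. In the whole table, exonic regions had 5.58 and intronic regions 3.55 Gsk-3 DKO reads per 100. The intronic members belong to Fto (3) and Wtap (1), so the part of overlap class in the difference between genes was not tested. Wild-type density was 0.147 reads per base over the intronic members and 0.427 over the exonic ones.

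**Figure D4:**
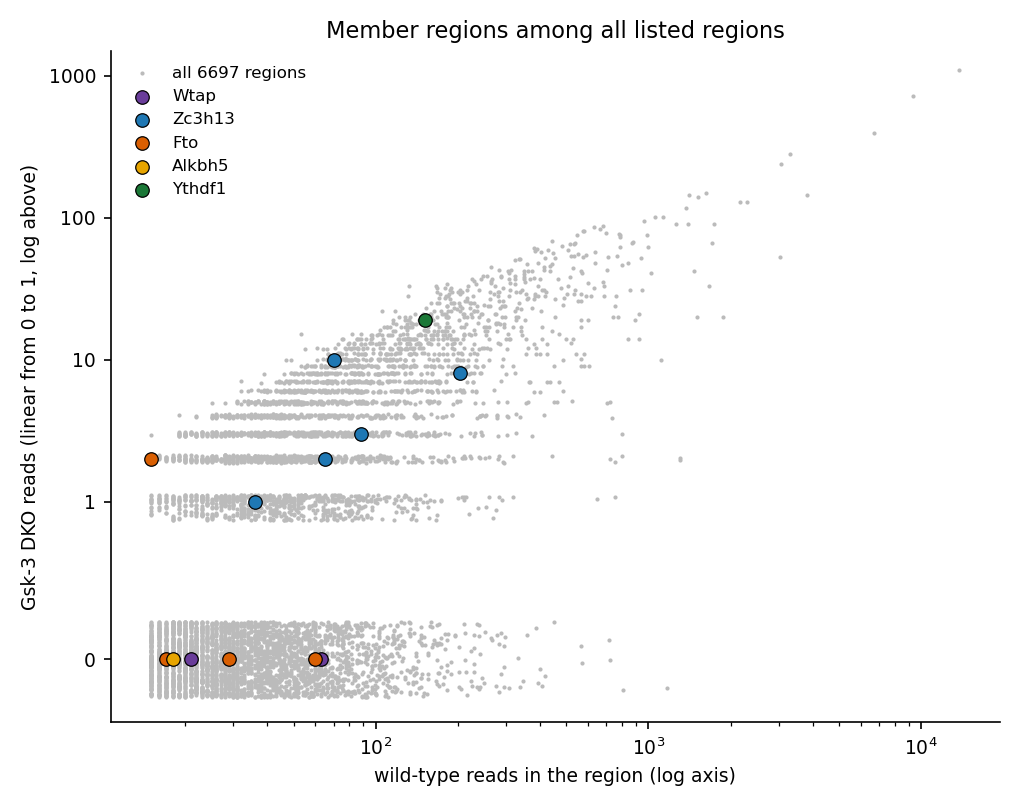
Gsk-3 DKO reads (vertical, linear up to 1 and logarithmic above) against wild-type reads (horizontal, logarithmic) for all 6697 regions in grey, shifted slightly up or down to separate points, with the 13 member regions coloured by gene. Ythdf1 (19 against 151) and the fifth region of Zc3h13 (10 against 70) lie in the upper part of the cloud. Wtap, Alkbh5 and most regions of Fto lie in the band at 0.

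Beyond the 5 members, a list of 28 genes of the m6A machinery was looked up, and 9 of them had a region. The 5 members among them were chosen as rows of the table. Of the other 23 genes, 4 (17.4%) were listed, close to the 15.8% of all protein-coding genes. The 9 comprised 4 of 12 writer genes, both eraser genes and 3 of 14 reader genes. Mettl3, Mettl14 and Virma, which form the core and its scaffold, were not listed, nor were Ythdf2, Ythdf3, Ythdc1 and Ythdc2. The deepest region of a gene had no Gsk-3 DKO read in 3 of the 9, against 46.2% of all listed genes, and was at least 10-fold lower in 5 of the 9, against 55.6%. The median log2 of that region was -3.43 in the 9 genes and -4.85 over all genes. The median fold with counts of 0 at the floor was 10.7 and 11.1. The log2 values depend on the pseudocount and on wild-type depth, and genes of like depth were not compared.

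The 4 listed genes outside the members had Gsk-3 DKO reads in all their regions. Rbm15 had 22 Gsk-3 DKO reads against 230 wild-type reads in its deepest coding region, 8.62-fold lower (5.56 to 14.0), and 35 against 327 over its 3 regions (10.7 per 100, 7.33 to 15.2). Rbm15b had 27 against 359, 11.0-fold lower (7.41 to 16.9), and 59 against 651 over its 2 (9.06 per 100, 6.82 to 11.8). Both intervals lie above the 5.58 per 100 of all exonic regions. The reader genes Igf2bp1, whose protein stabilises bound mRNA, and Prrc2a had 9 against 117 (10.7-fold lower, 5.46 to 24.0) and 6 against 47 (6.46-fold lower, 2.76 to 18.5) in their deepest regions.

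**Figure D5:**
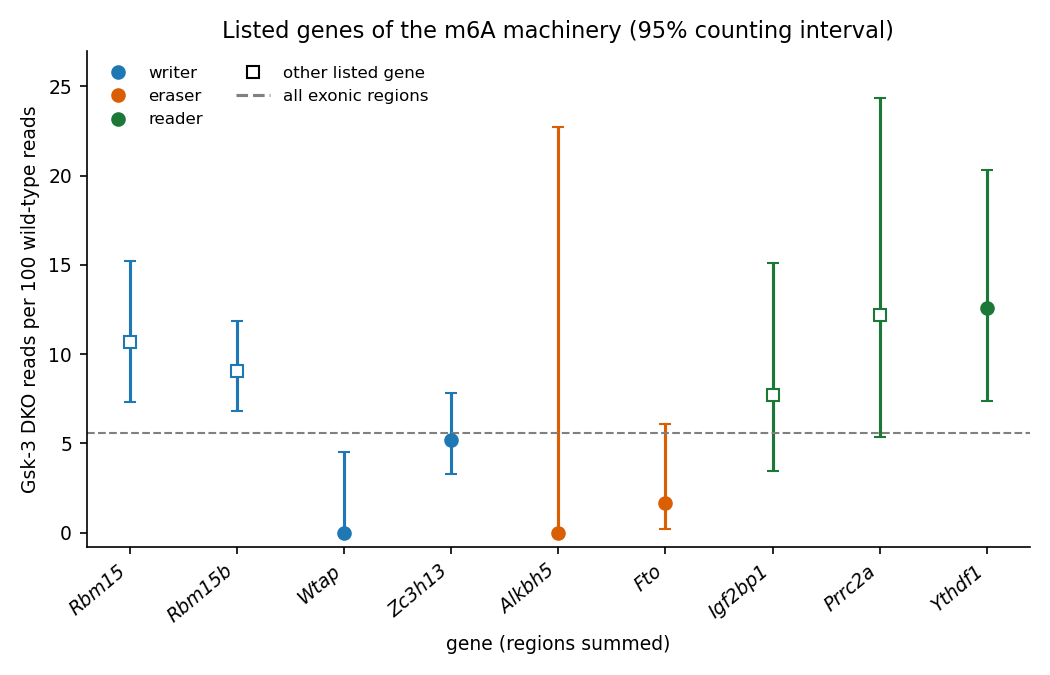
Gsk-3 DKO reads per 100 wild-type reads, regions summed, for the 9 listed genes of the m6A machinery in the order writers, erasers, readers, with exact 95% counting intervals and the value of all exonic regions (dashed line, 5.58). Filled circles are the 5 members and open squares the other listed genes. Wtap, with 63 of its 84 wild-type reads in an intron, has its whole bar below the line at 0 to 4.49. That bar contains the 2.48 per 100 that regions of the same class and count range as those of Wtap would give. Rbm15, Rbm15b and Ythdf1 have their bars above the line.

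The region of another gene with the same overlap type and the nearest pair of counts was sought for the deepest region of each member, over 2 libraries. For Ythdf1 this was Jun, an AP-1 transcription factor gene on chromosome 4, with the same 19 Gsk-3 DKO and 151 wild-type reads. For Zc3h13 it was Iqsec1, with 8 against 229. Those of Fto (Dlg5, 0 against 60) and Alkbh5 (Bptf, 0 against 18) were the first by alphabet of 6 and 8 regions with identical counts, and that of Wtap (Olfr287, 0 against 63) was 1 of 2. More than 1 region had identical counts for Fto, Alkbh5 and Wtap, but only 1 did for Ythdf1, and Zc3h13 had no identical match. With 2 counts to compare, such matches say little about the genes.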

How the data were processed

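The only file was a table of regions with gene annotation. Per the file headers the authors deposited a count for wild type and for Gsk-3 DKO. The header names no library type, and the counts were taken as those of the m6A libraries because only their titles name the assay; whether input enters them is not stated. The submitters' processing notes name Bowtie2, DESeq and mm9. Which peak caller and filters were used is not given here. The deposited ratio equals wild-type over Gsk-3 DKO counts times 0.825, blank at a Gsk-3 DKO count of 0. The authors' read density, a signal, is the number of wild-type reads per base. Coordinates are printed as deposited. They match GRCm38: 6026 of 6035 rows (99.9%) lay at most 5000 bases from their gene in RefSeq's GRCm38.p6 annotation, and the authors' distances imply a transcription start within 5 bases of a RefSeq start in 3553 of 4530 rows (78.4%), all 13 member rows included.

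From 7562 rows, 6697 distinct regions were each used once. Folds carry the authors' constant. Log2 values have a pseudocount of 0.5. Ratios of counts have Clopper-Pearson 95% intervals, whose coverage was checked on simulated Poisson counts with set ratios. Quotients of ratios have conditional odds-ratio intervals (SciPy 1.17.1), which were not part of that check. A Gsk-3 DKO count of 0 is set at 3 counts, which is below its upper 95% limit of 3.69. Counts of 1 and 2 are left as they are. Without molecular identifiers, PCR reads are not separate molecules; intervals and floors therefore cover counting error alone. No p-value was computed. Library totals are not in the table, so depth is unknown. A region is called exonic where any of its rows overlaps a coding exon or UTR, and intronic where all are introns. The named genes were the members, the other listed machinery genes and the nearest region by counts. Members and lists were chosen with earlier results of these data known. No region or motif sequence was analysed here.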

Additional observations from a re-analysis of the deposited data

How the results depend on the processing

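The median log2 value of the members (-4.43) was -0.67 with a median-ratio factor, which centres the regions with Gsk-3 DKO reads by construction and turned Ythdf1 from -2.68 to 1.09. It stayed within the counting interval of the median region under the 7 other alternatives, but that interval is wide and the place beside all regions depends on the pseudocount. The members and all regions had medians of -4.43 and -4.93 at a pseudocount of 0.5, -4.58 and -5.74 at 0.25, and -3.39 and -3.42 at 2. The 6 members without Gsk-3 DKO reads became 2 among the 7 regions at or above the median wild-type count, where fewer regions are counted. The 6 that were at least 10-fold lower became 10 with a floor of 1 count in place of 3, and 2 without Zc3h13. Shares over all regions under these alternatives are not given here. The changed counts therefore cannot be set against the 50.5% and 52.5% of the main setting. Leaving out Zc3h13 and the median-ratio factor were added after seeing the data. Of 20 alternatives for the deepest region of single members, 15 stayed within counting error, and the other 5 were those of the median-ratio factor. Overlap with RefSeq exons was not run, as no exon annotation was used here. No paired analysis was possible because each group has 1 library. Low counts limit most the member regions with under 20 wild-type reads, that of Alkbh5 and 2 intronic ones of Fto.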

Other observations

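The genes next to Fto were looked at because its introns hold several of the members. Of the 7 other protein-coding genes within 1 Mb of Fto, 2 were listed, where 15.8% of all protein-coding genes are. Around Alkbh5, Wtap, Ythdf1 and Zc3h13 the same window held 9 of 42, 4 of 25, 11 of 58 and 2 of 17. Irx3, a homeobox gene whose promoter is known in mice and humans to be contacted by Fto introns, had 0 Gsk-3 DKO reads against 53 wild-type reads in a coding exon, and Chd9, a chromatin remodeler gene, had 0 against 30 in a coding exon. Rpgrip1l, whose annotated span begins 76 bases from that of Fto, was not listed, nor was Irx5. Exonic regions of like wild-type count had no Gsk-3 DKO read in 27.7% (50 to 99 reads, as for Irx3) and 43.5% (30 to 49 reads, as for Chd9). These genes were chosen after their values were seen.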
